A study of Rattus norvegicus with 4 samples.

Results

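RNA of NRK-52E cells exposed to the lowest of 3 doses of hydrogen peroxide (H2O2), 0.003%, was compared with RNA of the control culture given 0%. NRK-52E is an established line from rat kidney with the features of tubule epithelium. Per the labels, confluent cells spent 1 h in medium with or without H2O2, were washed with buffered saline, and stayed 12 h in medium without serum before RNA extraction, so the control was starved of serum as well. The comparison rests on 2 of the 4 arrays of the series, 1 array per dose. Each array was taken as 1 culture, as the labels do not say whether wells were pooled. With no replicates there was no test. A difference of at least 2-fold (1 on the log2 scale) is called higher or lower as a rule of size, and its error is the scanner software's error for the spots, which leaves out the spread between cultures.

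Signals are given as levels, meaning log2 intensity relative to the 75th percentile of the array's own noncontrol spots. Where 2 levels are given, the control comes first and the 0.003% array second. A difference is the level on the 0.003% array minus the level on the control array. Of 41007 probes, 10834 (26.4%) carried a gene name, for 8963 genes, and 5681 named genes were well above background on at least 1 of the 2 arrays. A gene above background on 1 array only gives a bound, written as "at least". There were 557 such genes. For these the dim side was set to its own value or the array's lowest signal above background, whichever was higher. The words "at least" mark this rule and are no guaranteed lower limit, as the size depends on the background correction.

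Cells make ribosomes in the nucleolus, where RNA polymerase I copies the ribosomal RNA genes, small nucleolar ribonucleoproteins modify the transcript, and a large set of assembly factors turns it into small and large subunits that are exported through the nuclear pores. The assembly factors are made in step with growth, and MYC is the best known transcription factor acting on their genes. Tubule epithelium rests on a basement membrane of laminin, collagen and proteoglycans, holds to it through integrins, and depends on oxidation of fatty acids for much of its energy.

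Over all named genes compared, 917 (16.1%) passed 2-fold on the higher side at 0.003% and 681 (12.0%) on the lower side, and the median difference was 0.02. Over all 20895 features, named or not, these shares were 14.9% and 13.6%. The arrays were alike in depth: 53.4% and 53.5% of probes were well above background, the 75th percentile was 180 and 168 intensity units, and no noncontrol spot was saturated. Gapdh differed by 0.08 and Actb by -0.08, and the stress genes Hmox1 and Cdkn1a by 5.56 and 4.09. Both arrays lay on 1 slide at neighbouring positions and were read in 1 scan. Position and dose therefore cannot be told apart. Scaling to the spike-in spots in place of the 75th percentile moved the median of all features by -0.19, and scaling to the array median by -0.15. With spike-in scaling 12.2% of named genes were at least 2-fold higher and 17.4% lower. With normexp, a background correction that pulls dim signals together, these shares were 8.48% and 6.42%. The families below are read beside those shares.

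Of 12 markers of tubule epithelium on the array, 7 were well above background in the control and 8 at 0.003%, and their summed linear signal was 62.1 and 57.2 times the 75th percentile. Krt8, a keratin of simple epithelia, was bright at 5.89 and 5.80 and makes up most of that sum. Its partner Krt18 was dim and differed by 2.22 (0.75 with normexp). The water channel Aqp1 differed by -2.11, and the cadherins Cdh2 and Cdh16 by -2.14 and -1.08 (-0.62 and -0.16 with normexp). Epcam and Pax8 were not well above background on either array. Of 7 fibroblast markers, 4 were above background on both arrays (Col1a2, Col3a1, Pdgfrb and Vim), and the summed signal of the 7 was 74.3 and 37.7. Dcn, Lum and Thy1 were not well above background on either array. Of 3 endothelial markers, Kdr was above background on both arrays at -3.22 and -2.31, and Pecam1 and Emcn on neither, with a summed signal of 0.135 and 0.233. Of 6 macrophage and leukocyte markers 3 were above background in the control and 5 at 0.003%, with a summed signal of 42.1 and 27.3. Most of that came from Cd14, at a control level of 5.31 and a difference of -0.71. The others above background lay above 0: Cd68 at 0.28, Adgre1 at 0.61, and Csf1r and Cd74 at bounds of 0.26 and 0.47.

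Gene families were formed by function or by symbol, 86 in all, holding 2911 of the 5681 named genes. Those with a median difference of at least 0.5 in size numbered 12 above and 8 below, but 4 above and 23 below with spike-in scaling, and 6 above and 3 below with normexp. The 4 above with each of these were the nucleolar and ribosome biogenesis genes, the DEAD and DEAH box helicases, the nuclear pore and karyopherin genes and the translation factors. Collagens, other matrix proteins and the list of septins and their Cdc42 effectors were below with each. In RNA from a whole culture, fewer cells of a type and less RNA per cell cannot be told apart.

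**Figure D1:**
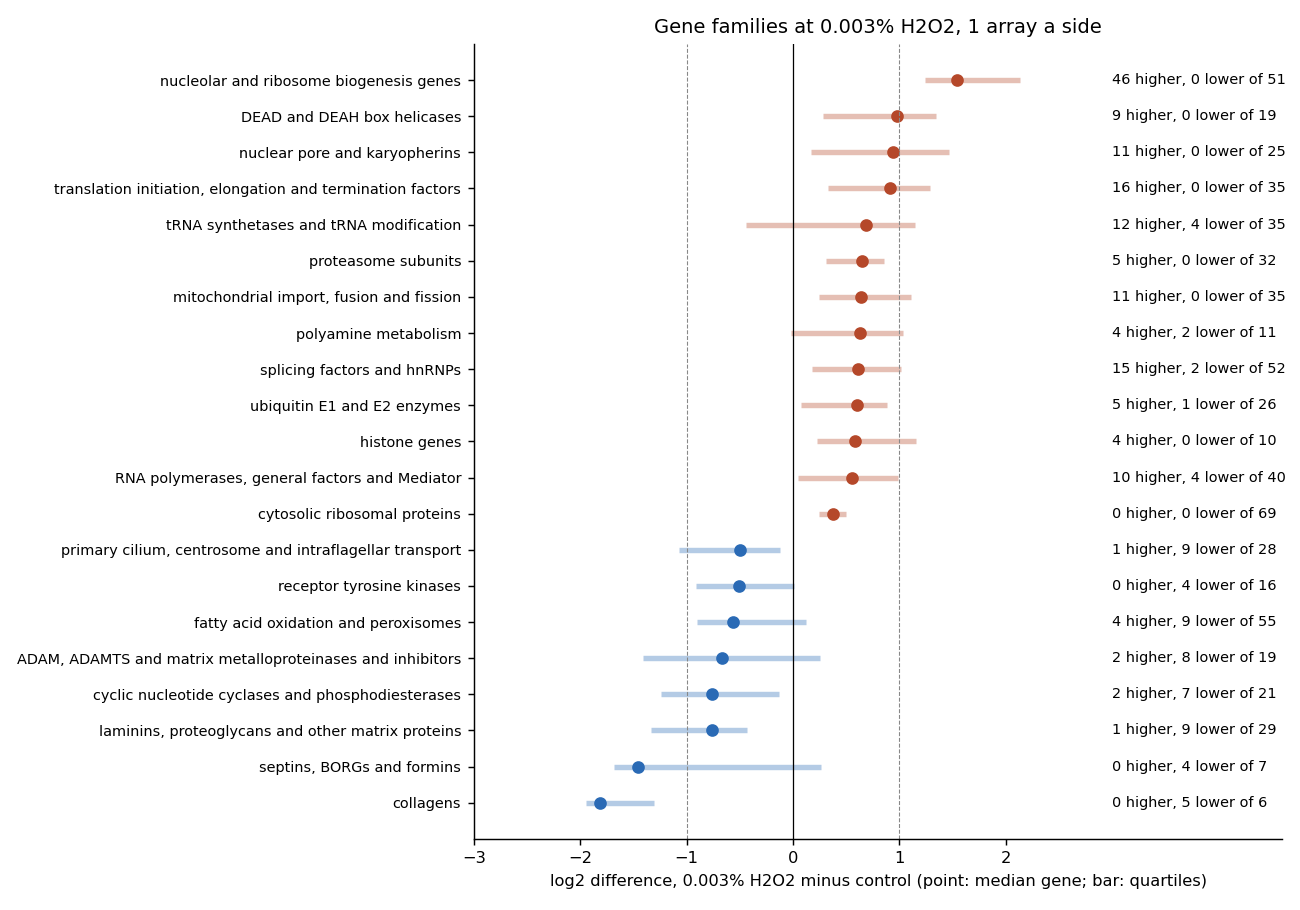
Median log2 difference (point) and quartiles (bar) of each family whose median was at least 0.5 in size, with cytosolic ribosomal proteins added; dashed lines mark 2-fold. The numbers at the right give the members at least 2-fold higher and lower on the 0.003% array. The nucleolar and ribosome biogenesis genes stand at the top with 46 of 51 higher, and the collagens at the bottom with 5 of 6 lower.

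Genes of the nucleolus and of ribosome assembly were higher on the 0.003% array almost without exception. Of 51 compared, 46 were at least 2-fold higher, none was lower, and all 51 differences were above 0. Over all named genes 16.1% were that much higher. The median difference was 1.54, and the quartiles were 1.24 and 2.13. The count was 41 with spike-in scaling and 39 with normexp. The 5 members that lay within 2-fold were Ltv1 at 0.93, Rrp8 at 0.74, Polr1c at 0.65, Nop53 at 0.53 and Polr1h at 0.27. Beyond the 6 members of a family with the largest difference in each direction, genes here and in the later families were named for their role, after their values were seen.

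The first step, transcription by RNA polymerase I, showed the widest range. Polr1b, the second largest subunit, had a level of -1.19 in the control and 1.54 at 0.003%, a difference of 2.74 (spot error 0.21). Polr1a, the largest subunit, had levels of 0.25 and 1.68, a difference of 1.44. Polr1d, shared with RNA polymerase III, differed by 1.20. Polr1c, the other subunit shared with polymerase III, and Polr1h differed by less than 2-fold. Taf1a, part of the selectivity factor that places polymerase I at its promoter, differed by 2.01 but by 0.62 with normexp, and was dim on both arrays (-3.86 and -1.84).

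All 6 genes of small nucleolar ribonucleoproteins were higher, with a median difference of 2.34. Nop58 and Nop56, the paired core proteins of the box C/D particles that methylate ribosomal RNA, had levels of 4.20 and 2.52 in the control and 6.55 and 4.83 at 0.003%. Fbl, the methyltransferase of the same particles, was bright in the control at 6.37 and differed by 1.03. Dkc1, the pseudouridine synthase of the box H/ACA particles, differed by 1.48, and its partner Gar1, with levels of -1.68 and 0.91, by 2.60. Nolc1, which escorts both kinds of particle, had levels of 3.89 and 6.62 on its brightest probe, a difference of 2.73. Its other 2 probes gave 1.36 and 1.36, so its size depends on the probe and its direction does not.

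Assembly factors of the small subunit were higher in 12 of 13 genes, with a median difference of 1.54. Utp3 had levels of 2.64 and 4.68, Bysl of 1.36 and 3.59, and the late-acting kinase Riok2 of 1.63 and 3.70. Nob1, the nuclease that makes the last cut of 18S RNA, differed by 1.09 and its partner Pno1 by 1.40. Utp14a, Nol10 and Utp25 were dim, at -3.10 or below in the control, and with normexp their differences were 0.86, 0.89 and 0.45.

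Factors of the large subunit were higher in 20 of 21 genes, with a median difference of 1.67. Gtpbp4, a GTPase bound to early precursors, had levels of 1.51 and 4.09, a difference of 2.58 (spot error 0.20). Rrp15 differed by 2.36 and Brix1 by 2.35. Rrs1, which brings the 5S particle into the precursor, differed by 2.29. The PeBoW complex, needed for the 5.8S and 28S RNAs, was higher in all its parts: Wdr12 by 2.19, Bop1 by 1.41 and Pes1 by 1.21. Gnl3 (nucleostemin), a nucleolar GTPase of dividing cells, had a level of 4.79 in the control and differed by 2.22. Among the abundant nucleolar proteins, Ncl (nucleolin) had levels of 5.61 and 7.37 and Npm1 (nucleophosmin), bright in the control at 7.36, reached 8.64.

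Of these genes 11 had more than 1 probe above background, and in 11 of 11 every probe lay above 0. The probes of Npm1 gave 1.28, 1.73 and 1.85. The probes of the helicase Ddx21 were far apart, at a bound of 0.86, 1.99 and 3.78. Over all named genes with at least 2 probes, all probes lay on the same side of 0 in 983 of 1161 genes (84.7%). Signal strength did not separate the members: with named genes ranked by mean signal into 4 equal parts, 19 of 21 members in the brightest part were at least 2-fold higher, against 13.5% of all genes there, and 18 of 20 in the next, against 14.9%.

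**Figure D2:**
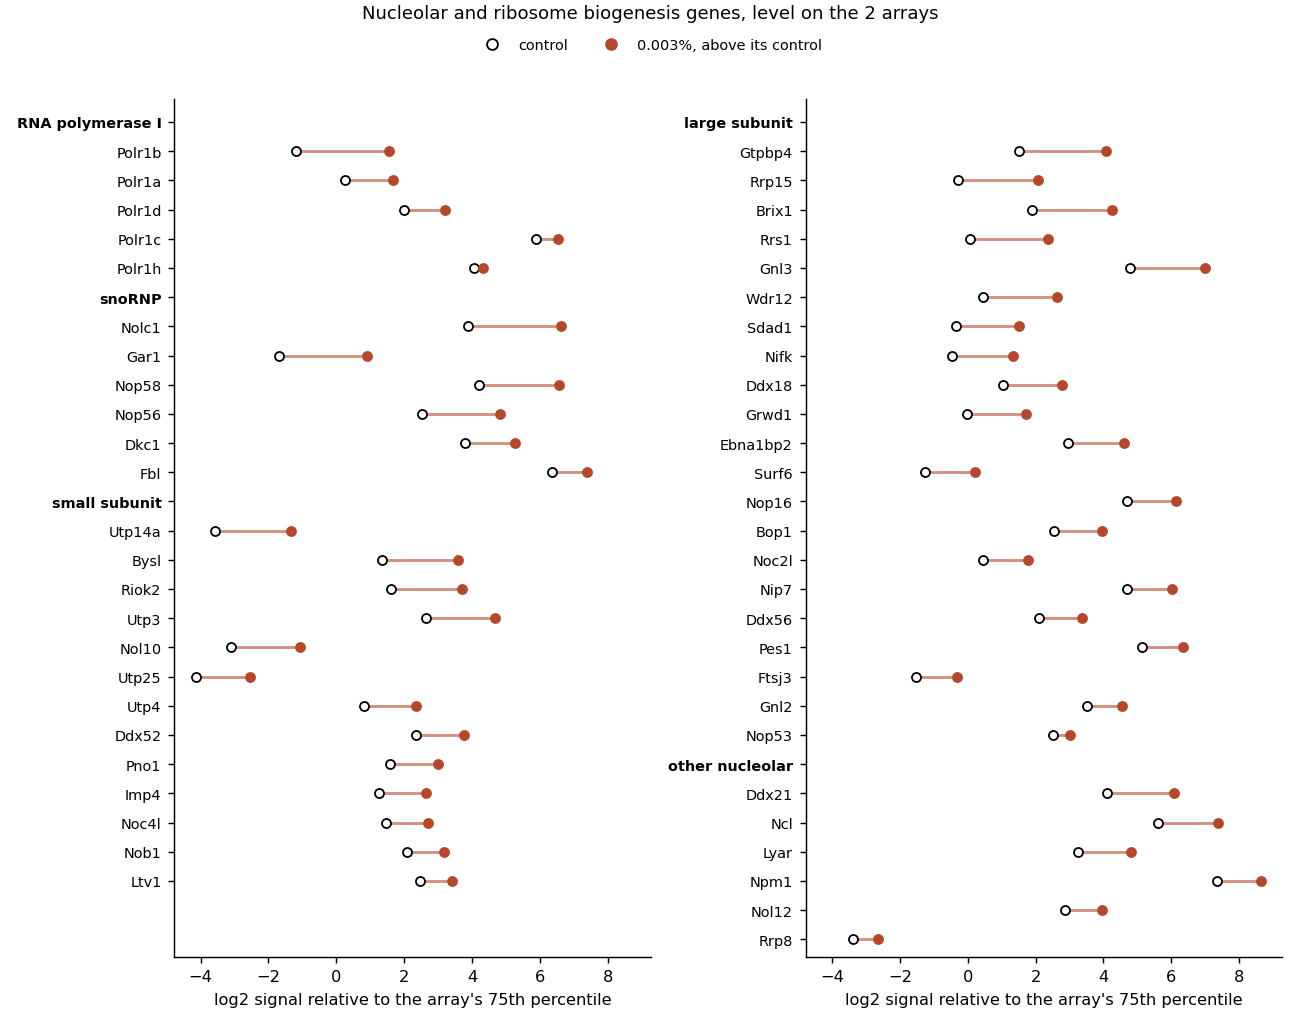
Level of each of the 51 nucleolar and ribosome biogenesis genes on the control array (open points) and the 0.003% array (filled points), as log2 signal relative to the array's 75th percentile, grouped by role; 1 array each, brightest probe of the gene. Every filled point lies to the right of its open point, from 0.27 for Polr1h to 2.74 for Polr1b. The control level of Utp25 was not well above background.

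The proteins that make up the ribosome itself stood apart from their assembly factors. Of 69 cytosolic ribosomal proteins compared, none was at least 2-fold higher or lower, but 68 lay above 0. The median difference was 0.38 and the quartiles were 0.25 and 0.50. Small subunit proteins (28 genes) had a median of 0.37 and large subunit proteins (41 genes) of 0.38. Rps6, a small subunit protein, had levels of 9.42 and 9.54. Rpl3, of the large subunit, had the lowest difference of the family, with levels of 6.25 and 6.24. These are among the brightest probes, with a median control level of 7.60, higher than 98.5% of named genes, and many have processed copies in the genome whose RNA can bind the same probe. With quantile normalization their median was 0.15. Mitochondrial ribosomal proteins had 4 of 24 higher and a median of -0.03, and 1 was higher with spike-in scaling or normexp.

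**Figure D3:**
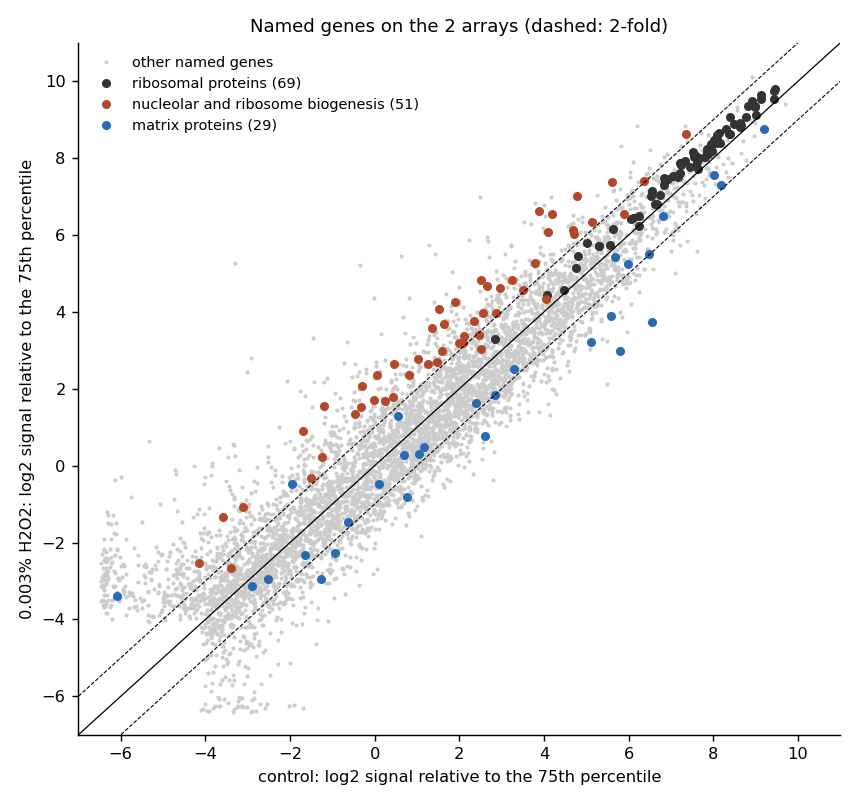
Level of every named gene compared, control array across and 0.003% array up, both as log2 signal relative to the array's 75th percentile; dashed lines mark 2-fold and the groups outside the grey points are named with their number of genes. Of the 51 nucleolar genes 46 lie on or above the upper dashed line, from dim to bright signal, ribosomal proteins lie along the diagonal at the bright end, and many matrix genes lie below. Points at the far left and the bottom are genes not well above background on 1 array.

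Myc, also a stress-list gene, had levels of 0.72 and 3.45, a difference of 2.73 (spot error 0.07). Its partner Max differed by 1.70, or 0.94 with normexp. Mycn, a close relative, and Mxd3, which competes with MYC for Max, were lower, at -1.73 and -1.52, and both were within 2-fold with normexp (-0.78 and -0.97). MYC and MAX bind the letters CACGTG, the E-box, which read the same on both strands. In RefSeq promoters on GRCr8, from 250 bases before to 50 after a gene's start, CACGTG stood in 15 of the 46 nucleolar genes with a promoter in the table (32.6%). It stood in 9.54% of the 4664 named genes compared that had one, in 6.65% of all 27457 promoters, in 4 of 54 ribosomal protein genes, and in 0 of 26 collagen and matrix genes. Outside the nucleolar genes, 84 of 721 named genes at least 2-fold higher held it (11.7%). So did 38 of 536 at least 2-fold lower (7.09%) and 6 of 30 tRNA synthetase and modification genes. Nucleolar genes with and without the letters had median differences of 1.59 and 1.46. A match describes the letters and not binding. Windows upstream of the start are shown for the 4 nucleolar genes with the largest difference that hold the letters there, 5′ to 3′ on the gene's strand, with the E-box in capitals. They lie at chr16:6219783-6219847 (minus strand) for Gnl3, chr1:66776053-66776138 (plus strand) for Riok2, chr13:35295973-35296025 (minus strand) for Ddx18 and chr14:76802810-76802895 (minus strand) for Lyar, all on GRCr8.
Gnl3: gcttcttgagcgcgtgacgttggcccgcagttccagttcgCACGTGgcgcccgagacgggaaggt
Riok2: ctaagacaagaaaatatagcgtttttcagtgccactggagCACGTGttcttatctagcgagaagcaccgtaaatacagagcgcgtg
Ddx18: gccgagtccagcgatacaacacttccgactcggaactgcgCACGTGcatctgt
Lyar: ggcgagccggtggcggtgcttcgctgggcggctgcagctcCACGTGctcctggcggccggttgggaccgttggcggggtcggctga

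Transport through the nuclear pore was the next group. Among 25 nucleoporins and karyopherins 11 passed 2-fold on the higher side and 0 on the lower, and the median was 0.94. Nup50, a mobile nucleoporin that helps import, had levels of 4.01 and 6.09. Kpna1, an importin alpha, had levels of 1.91 and 3.95. Nup54 and Nup62, of the central channel, differed by 2.29 and 1.57. Xpo1, the exporter that carries ribosomal subunits out, differed by 1.12, and Ran, the GTPase that gives transport its direction, by 1.09 from a bright control level of 7.23. Both were within 2-fold with spike-in scaling, at 0.93 and 0.89. The membrane nucleoporin Nup210 had the lowest difference of the group, -0.93.

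RNA helicases of the DEAD and DEAH families were higher in 9 of 19, with none lower and a median of 0.97. Of these 9, Ddx18, Ddx21, Ddx52 and Ddx56 also count among the nucleolar genes. Ddx39a, an mRNA export helicase, differed by 1.54, and Eif4a2, which unwinds mRNA for initiation, by 1.39. Splicing factors had 15 of 52 higher and 2 lower, with a median of 0.61. Srsf2, an SR protein, had levels of 1.47 and 3.33, and the splicing kinase Clk4 of 2.22 and 3.70. With spike-in scaling 9 splicing factors were at least 2-fold higher.

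Among translation factors 16 of 35 were at least 2-fold higher, 0 lower, and the median was 0.91. Of the 16, 15 were among the 26 Eif genes of initiation, and the other was Etf1, the release factor, at 1.53. None of the 4 elongation factors passed 2-fold, and their median was 0.37; the contrast was not tested. Eif4e, the cap-binding protein, had levels of 3.21 and 5.73, a difference of 2.52, and the median of its 2 probes was 1.64. Eif3j differed by 2.07, Eif1a, which scans for the start codon, by 1.85, and Eif2s2, the beta subunit of the factor that brings the first tRNA, by 1.81. With spike-in scaling 9 of the 35 were higher.

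Genes that charge tRNA were taken by compartment, and the difference between compartments was not tested. Of 13 cytosolic tRNA synthetases, 5 were at least 2-fold higher and 0 lower, with a median of 0.87 and a range from -0.47 to 2.42. Of 7 mitochondrial ones, 0 were higher and 3 lower, with a median of -0.55 and a range from -1.77 to 0.81. Tars1 (threonine) had levels of -1.17 and 1.25, Nars1 (asparagine) of 1.98 and 4.27 and Yars1 (tyrosine) of 1.66 and 3.79. The mitochondrial Fars2 (phenylalanine) had levels of 0.88 and -0.89 and Pars2 (proline) of 2.52 and 1.43. Among enzymes that modify tRNA, Trmt10c differed by 1.72, Pus1 by 1.55 and Trmt61a by 1.54, while Elp2, of the elongator complex, differed by -1.07.

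The letters TGATGCAA (TTGCATCA on the other strand), part of the element bound by the amino acid response factor ATF4, stood in the promoters of 3 of 30 of these tRNA genes, Nars1, Tars1 and Yars1, and in 0.729% of the named genes compared. Those 3 genes had the 3 largest differences of the family, and 1 of them, Yars1, holds the letters after the start. Of the 46 nucleolar genes, 2 held them, Gar1 and Gtpbp4. Outside the nucleolar genes, 12 of 721 named genes at least 2-fold higher held them (1.66%), and 2 of 536 at least 2-fold lower (0.373%). Here too a match describes the letters and not binding, and a part of ATF4 was not tested. The window of Tars1, at chr2:62114803-62114869 on the minus strand of GRCr8, is shown with the letters in capitals.
Tars1: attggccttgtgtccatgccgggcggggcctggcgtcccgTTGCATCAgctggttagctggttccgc

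Genes of import into mitochondria were higher more often than those of the respiratory chain, a difference that was not tested. Of 35 genes of mitochondrial import, fusion and fission, 11 passed 2-fold on the higher side and 0 on the lower, and the median was 0.64; with spike-in scaling 5 were higher and 2 lower, and with normexp 7 were higher. Timm10, a chaperone of the intermembrane space, had levels of 3.21 and 5.71. Chchd4, which traps small proteins there by oxidizing them, had levels of 0.13 and 2.46. Tfb2m and Tfam, which start transcription of mitochondrial DNA, differed by 2.08 and 1.15. In oxidative phosphorylation 3 of 64 genes were higher and 1 lower (4 with spike-in scaling), with a median of -0.02. One of the 3, the complex I assembly factor Ndufaf4, had levels of 1.23 and 3.82. Coq8a, a kinase-like protein of ubiquinone synthesis, had levels of 1.97 and 0.02.

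Proteasome subunits lay mostly above 0 by less than 2-fold. Of 32 compared, 28 lay above 0 and the median was 0.65, while 5 (15.6%) were at least 2-fold higher, a share close to the 16.1% of all named genes, and none was lower. Psma5 had levels of 6.47 and 7.74 and Psmd12 of 3.84 and 5.07. The 3 immunoproteasome subunits Psmb8, Psmb10 and Psmb9 differed by 0.75, 0.01 and -0.56. Of 12 chaperonin and prefoldin genes, 4 were higher, and all 4 were subunits of the chaperonin that folds actin and tubulin: Tcp1, with levels of 3.97 and 5.47, Cct6a at a difference of 1.37, Cct4 at 1.18 and Cct5 at 1.05. With spike-in scaling 2 of the 12 were higher. Single ubiquitin ligases stood far above their families. In the E3 ligase and related lists, Fbxo30 had levels of -1.43 and 2.18, a difference of 3.61. Arih2, a ligase that works with cullins, had levels of -0.48 and 2.65 on its brightest probe, and the median of its 2 probes was 2.40. Rnf4, which acts on SUMO chains, differed by 2.33 and the deubiquitinase Vcpip1 by 2.05, with a median of 1.35 over its probes. Ubiquitin-conjugating enzymes had 5 of 26 higher and 1 lower with a median of 0.60 (3 higher with normexp), among them Ube2d3, which had levels of 4.66 and 6.10, and Ube2d2b, which had levels of 1.13 and 2.98.

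Polyamine and nucleotide enzymes held some of the highest genes of the comparison. Ampd1, the muscle form of AMP deaminase, had levels of -2.92 and 2.81, a difference of 5.73 (spot error 0.26), the largest among measured genes outside the stress lists. It was dim in the control, and with normexp its difference was 3.69, below the 3.73 of Nppb. Ampd3, a relative of Ampd1, was lower, with levels of 2.90 and 1.43. Arg2, the mitochondrial arginase, had levels of -3.69 and 0.45, while Arg1, the cytosolic arginase, had levels of 5.66 and 4.41. The difference of Arg2 was 4.14, or 2.03 with normexp. Odc1, which turns ornithine into the first polyamine, had levels of 1.41 and 3.41. Srm (spermidine synthase) and Sat1, which marks polyamines for breakdown, differed by 1.02 and 1.05, and were within 2-fold with spike-in scaling (0.83 and 0.85). Prps1, which makes the ribose donor of nucleotides, differed by 2.21, and the purine enzymes Gmps and Atic by 1.23 and 1.18. Asns (asparagine synthetase), on a stress list, differed by 2.65 and Shmt2, the mitochondrial serine enzyme of the folate cycle, by 1.57.

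Extracellular matrix genes formed the clearest group on the lower side. Of 6 collagens compared, 5 were at least 2-fold lower, and the sixth, Col2a1, differed by 0.98; 12.0% of all named genes were that much lower. The median was -1.81. Col5a1, of the fibrils of type V, had levels of 4.27 and 1.86. Col3a1 had levels of 4.72 and 2.97, Col5a3 of 3.59 and 1.71, and Col1a2 of 1.19 and -0.77. Col4a4, of basement membranes, was dim and gave a bound of at least 2.23-fold lower, and with normexp it was within 2-fold at -0.38.

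Other matrix proteins lay below 0 in 26 of 29 genes, with 9 at least 2-fold lower, 1 higher, and a median of -0.76. Agrn (agrin), a basement membrane proteoglycan, had levels of 5.80 and 2.98, a difference of -2.81 (spot error 0.20). Megf6 had levels of 6.56 and 3.73, Fn1 (fibronectin) of 5.10 and 3.22, and the laminin chain Lamb2 of 5.57 and 3.88. Eln (elastin) differed by -1.82 and Fbn2 (fibrillin 2) by -1.67, the latter -0.72 with normexp. Lama3, the laminin chain of epithelial anchoring sites, was the exception, with levels of -1.96 and -0.49, or a difference of 0.77 with normexp. In 6 of 6 matrix genes with more than 1 probe all probes lay on 1 side of 0. Of the fibroblast markers above background, Col1a2 and Col3a1, already counted among the collagens, differed by -1.96 and -1.74. Pdgfrb differed by -2.17 and Vim by -0.57. The part of fibroblast-like expression in the matrix values was not tested.

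Itga1, the integrin chain that binds collagen, was the lowest of all measured named genes outside the stress lists, with levels of 5.50 and 2.12, a difference of -3.38 (spot error 0.20). Of the other 4 integrins compared, Itgb4, of the sites that hold epithelium to laminin, differed by -1.11, Itgb1, the common beta chain, by -0.45 and Itga7, a laminin receptor chain, by -0.32. Itgb6, an epithelial beta chain, was dim and lay above 0, at a bound of 0.78. Matrix proteases and their inhibitors had 8 of 19 lower and 2 higher (0 higher with normexp or spike-in scaling), with a median of -0.67. Adamts7 had a level of 4.10 in the control and was 5.65-fold lower, and Mmp14, a protease of the cell surface, had levels of 7.21 and 5.75. Timp3, an inhibitor bound in the matrix, differed by -2.12, while Timp1 and Timp2 differed by 0.12 and -0.08. The median of this family depended on dim genes, being -0.11 with normexp and -0.99 over genes above background on both arrays.

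**Figure D4:**
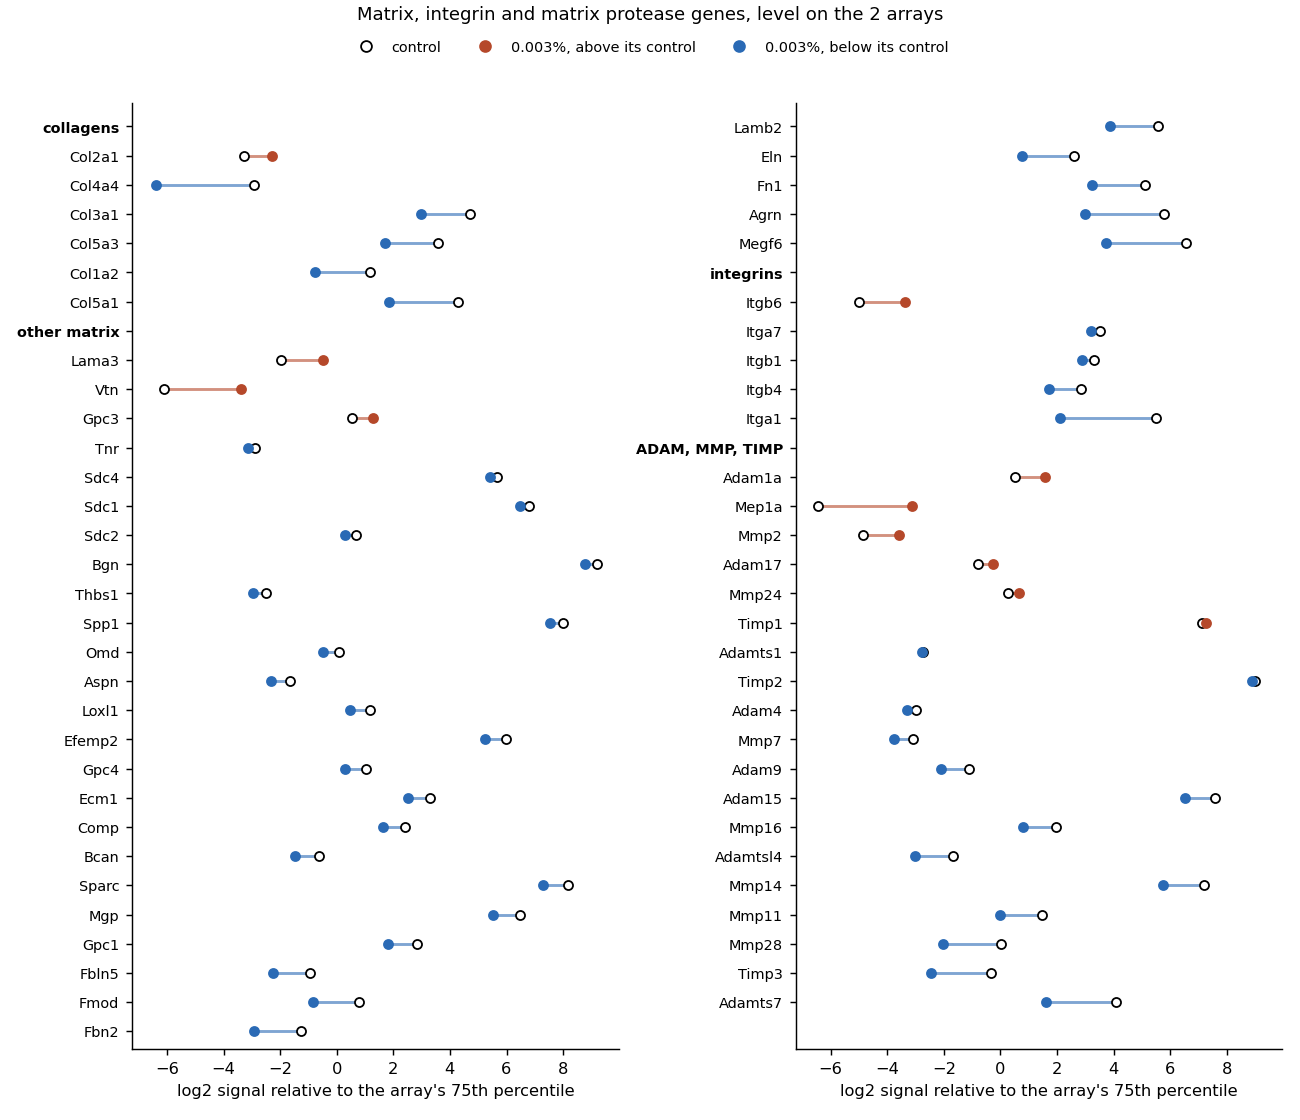
Level of the collagen, other matrix, integrin and matrix protease genes on the control array (open points) and the 0.003% array (filled points), as log2 signal relative to the array's 75th percentile; 1 array each. Filled points lie to the left of the open points in most rows, farthest for Itga1 at -3.38 among genes above background on both arrays. Col4a4, Vtn, Itgb6, Mep1a and Mmp2 were not well above background on 1 of the arrays.

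Adhesion molecules of the cell surface were mixed as families but held several low members. Of 26 immunoglobulin-type and tight junction genes 7 were lower and 3 higher (4 and 1 with normexp), with a median of -0.24. Ncam1 had levels of -0.03 and -2.81 and Nectin2, which sits at adherens junctions, of 2.12 and -0.04. Alcam differed by -1.29, or -0.96 with normexp and -0.74 as the median of its probes. Among 17 cadherins and protocadherins, 5 were lower (3 with normexp) and 2 higher. Pcdha4 differed by -2.75 and Cdh2 (N-cadherin) by -2.14, the latter -0.62 with normexp. Cdhr1, a cadherin known from photoreceptors, was higher, with levels of -3.33 and 0.55.

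In the cytoskeleton, septins and the Cdc42 effectors that bind them did not share 1 direction. Cdc42ep2 had levels of 3.62 and 1.39 and Cdc42ep1 of 1.55 and 0.10. Septin9 had levels of 4.56 and 2.72 and Septin10 of -0.14 and -1.66, the latter -0.85 with normexp. Septin2, Septin5 and Septin7 differed by 0.14, 0.39 and 0.70. The median over these 7 was -1.45, the value of Cdc42ep1, and 3 of the 5 septins lay above 0, with Septin2 at -0.05 under spike-in scaling. Rnd1 and Rnd3, small GTPases that loosen actin stress fibres, were higher: Rnd1 had levels of 2.22 and 5.86 and Rnd3 of 0.07 and 1.98. Among actin-binding proteins 2 of 48 were higher and 3 lower (8 with spike-in scaling). Gsn (gelsolin), which cuts actin filaments, had levels of 7.01 and 5.59. The myosin chain Myh10 had levels of 3.93 and 2.20.

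Genes of the cilium, centrosome and intraflagellar transport had 9 of 28 lower and 1 higher, with a median of -0.50. The 8 Ift genes, which build the train that moves along the cilium, all lay below 0, between -1.52 and -0.16, and 3 were at least 2-fold lower. Ift46 had levels of 1.77 and 0.25, Ift172 of 1.70 and 0.22, and Bbs2, of the complex that loads membrane cargo, of 0.41 and -1.52. Smo, a hedgehog signalling protein that works in the cilium, differed by -1.38, or -0.94 with normexp. With normexp 4 of the 28 were lower. Foxj1, the factor for motile cilia, had levels of -3.35 and 0.56, a difference of 3.91 (spot error 0.28), or 2.14 with normexp.

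Glycosyltransferases and sulphotransferases had 20 of 64 lower and 7 higher (16 and 1 with normexp), with a median of -0.50. Genes with symbols starting with B4galt, B3galt, St3gal, St6gal or Fut, whose enzymes add galactose, sialic acid or fucose, made up much of this. Of these 15 genes, 9 passed 2-fold on the lower side and 0 on the higher, and the median was -1.45. Other enzymes of these sugars were not in the subset. This subset was chosen after the values were seen. St6gal1, which adds sialic acid, had levels of 1.43 and -0.14, and Fut8, which adds the core fucose, of 0.50 and -0.95. Outside the subset, Gcnt2, which makes branched chains, had levels of 3.20 and 1.32. B4galt7 and Xylt2, which start the linker of proteoglycan chains, had levels of 4.24 and 2.69 for the first and 1.51 and -0.12 for the second. Large2, which extends the matrix-binding glycan of dystroglycan, differed by -1.79.

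Fatty acid oxidation genes lay below 0 in 39 of 55, with a median of -0.57. With the 75th percentile 9 (16.4%) were at least 2-fold lower and 4 higher, beside 12.0% and 16.1% of all named genes. With spike-in scaling 21 were lower and 3 higher, and with normexp 5 and 0. Cpt2, which hands fatty acids to the matrix of the mitochondrion, had levels of 3.07 and 1.47, and its partner Cpt1a had levels of 1.68 and 0.67. Acsl3 had levels of 4.03 and 2.79 and Eci1 of 2.99 and 1.85. Among enzymes that desaturate or lengthen fatty acids, Fads1 had levels of 2.01 and 0.30, Scd2 of 6.56 and 5.11 and Elovl6 of 1.90 and 0.50. Enzymes at the start of phospholipid and triglyceride synthesis were among the higher genes. Chka, choline kinase, had levels of -3.47 and 0.24, Gpam, the mitochondrial acyltransferase, of -2.52 and 0.23, and Gpat3 was at least 6.83-fold higher, though within 2-fold with normexp (0.94). Lpcat3, which remodels phospholipids, had levels of 3.11 and 1.40. Over the 52 genes of lipid synthesis 6 were higher and 15 lower, against 2 and 9 with normexp and 5 and 22 with spike-in scaling.

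In calcium and cyclic AMP signalling, the inositol trisphosphate receptors Itpr1 and Itpr3, which release calcium from the endoplasmic reticulum, had levels of 3.89 and 1.39 for the first and 2.82 and 0.36 for the second. Both had 2 probes, with medians of -2.59 and -2.40. Plce1, a phospholipase that makes inositol trisphosphate, had levels of 1.08 and -1.82. Cyclases, phosphodiesterases and anchoring proteins of cyclic nucleotides had 7 of 21 lower and 2 higher, with a median of -0.76; with normexp 4 were lower, 0 higher and the median was -0.23. Akap5 had a level of 4.18 in the control and differed by -2.19. The cyclase Adcy5 had levels of 3.49 and 1.95 and Adcy6 of 4.19 and 2.95. The 2 probes of Adcy6 had a median of -0.81.

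Receptor families of the cell surface differed in their counts. Of 16 receptor tyrosine kinases, 4 were lower and none higher, with a median of -0.50; with normexp 1 was lower and the median was -0.23. Pdgfrb had levels of 1.78 and -0.39 and Egfr, the receptor of the epidermal growth factor family, of 2.38 and 1.31. Egfr, Fgfr3 and Ddr1 were the others lower, and lay within 2-fold with normexp (-0.92, -0.43 and -0.32). Interleukin and TNF receptor families had 7 of 29 higher and 1 lower, but 1 higher with normexp and 4 with spike-in scaling. Tnfrsf12a, the receptor of TWEAK, was bright, with levels of 5.25 and 7.04. Receptors, SMADs and antagonists of the BMP and TGF-beta pathways had 5 of 22 higher and 2 lower, and 1 higher with normexp. Among G protein-coupled receptors 12 of 66 were higher and 10 lower, mostly dim genes, and with normexp 1 was higher and 5 lower. The exception with normexp was Tacr2, a tachykinin receptor, at -3.88 in the control and -0.25 at 0.003%. Of 120 olfactory and vomeronasal receptors, 10 were higher and 5 lower and none of these calls held with normexp. For comparison, 16.1% and 12.0% of all named genes were that much higher and lower.

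Secreted peptides and growth factors had 21 of 69 higher and 13 lower, against 8 and 9 with normexp. Nppb, the brain natriuretic peptide, had levels of -1.46 and 3.31, a difference of 4.77 (spot error 0.21). Tac3, the precursor of the tachykinin neurokinin B, had levels of -3.51 and -0.41. Gal (galanin) was not well above background in the control and was at least 17.6-fold higher. Nrg1, a ligand of the ERBB receptors, had levels of -0.52 and 1.70. On the lower side, Angptl2 had levels of 2.32 and -0.22, Fgf18 of 3.39 and 1.36, Tgfb3 of 5.08 and 3.04 and Ccn5 of 3.09 and 1.02.

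Solute carriers as a whole had 16 of 137 higher (11.7%) and 21 lower (15.3%), beside 16.1% and 12.0% of all named genes. The counts were 6 and 13 with normexp, and 31 were lower with spike-in scaling. Slc3a2 and Slc7a5, both on a stress list, are the heavy and light chains of a transporter of large neutral amino acids. Slc3a2 had levels of 2.68 and 5.84 and Slc7a5 was at least 15.1-fold higher. Slc30a1, which exports zinc, had levels of -1.20 and 1.11. Slc13a3 and Slc13a5, both carriers of dicarboxylates and citrate, differed in direction: Slc13a3 was at least 13.1-fold higher and Slc13a5 had levels of 2.23 and 0.12. Slc2a5, the fructose transporter, had levels of 2.74 and 0.64. ABC transporters had 6 of 19 lower and 1 higher. Abca2 had levels of 5.38 and 3.29, Abcd3, of the peroxisome, of 5.07 and 3.47, and Abcc5 of 4.97 and 3.41. The potassium channel genes Kcnmb4 and Kcnh2 differed by -2.18 and -1.84, while the 6 higher potassium channels were dim and within 2-fold with normexp. Atp1b1, the beta chain of the sodium pump, had levels of 7.03 and 5.86.

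Transcription and chromatin regulators stood out as single genes more than as families. Brd2, a reader of acetylated histones, had levels of 4.17 and 6.99, a difference of 2.82, and its 2 probes had a median of 2.88. Jmjd6 had levels of -1.18 and 1.47. Nfix, a nuclear factor I protein, had levels of 5.49 and 3.24 and its 3 probes had a median of -2.25. Nr0b2 (SHP), a nuclear receptor that represses others, had levels of 4.15 and 1.32. Smarca2 (BRM), an ATPase that remodels nucleosomes, had levels of 1.26 and -0.80. Of 40 genes of RNA polymerases, general factors and Mediator, 10 were higher and 4 lower, with a median of 0.55. This list shares members with the nucleolar genes: Polr1b and Polr1a, at 2.74 and 1.44, count as higher in both. Gtf2f2, of the initiation factor TFIIF, had levels of 0.26 and 1.99, Polr3d, of RNA polymerase III, of 1.55 and 2.65, and Gtf2i (TFII-I) of 6.24 and 4.51. Histone genes had 4 of 10 higher, and H3f3b, a replacement histone, had levels of 6.83 and 8.02. With normexp 5 of the polymerase list and 1 histone gene were higher. In the circadian clock, Nfil3, a repressor, differed by 2.07 and Dbp, the activator that binds the same sites, by -1.32.

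Kinases and phosphatases included Prkaa1, a catalytic subunit of the AMP-activated kinase, which had levels of -1.48 and 1.52. Prkcz, an atypical protein kinase C, had levels of -0.73 and 2.67 on its brightest probe, but the median of its 2 probes was 1.44. Its other probe thus lay below 0, and no direction is given for the gene. For Prkce the brightest of 3 probes gave 2.52 and the median of the probes -1.29, so no direction is given. Ptk2b, a focal adhesion kinase relative, differed by -2.27. Among dual specificity and PP1, PP2A and PPM phosphatase subunits 13 of 49 were higher (7 with normexp) and 1 lower (6 with spike-in scaling), led by the stress-list gene Ppp1r15a at 4.46. Dusp5, which acts on ERK, differed by 2.44. Ptp4a1, a phosphatase anchored by a lipid tail, had levels of 4.67 and 6.51, and the receptor phosphatase Ptprf of 7.38 and 5.84. Hk2, the inducible hexokinase, had levels of -3.38 and -0.73. Of the 38 genes of glycolysis and glycogen, 6 (15.8%) were lower and 2 higher, beside 12.0% and 16.1% of all named genes. With spike-in scaling 10 were lower, beside 17.4% of all named genes, and with normexp 4, beside 6.42%. Among the lower was Pfkm, which had levels of 4.18 and 2.54.

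Further genes were among the 15 highest or lowest measured. Ifi27l2b, an interferon-inducible gene, had levels of 0.80 and 4.37 and Depdc7 of -1.12 and 2.28. Orc2, of the origin recognition complex, differed by 3.56 on its brightest probe, with a median of 2.18 over 2 probes. On the lower side, Tmem204 had levels of 2.79 and -0.36 and Duox2, a membrane oxidase that makes H2O2, of 5.97 and 3.47. Tns4, a focal adhesion protein, differed by -2.72, the serotonin receptor channel Htr3b by -2.64 and the G protein Gnaz by -2.48, the last -0.93 with normexp. Beside Gal, the highest bounds were Ifrd1, at least 27.4-fold higher, and Serpinb2, an inhibitor of plasminogen activators, at least 15.2-fold. Next were Qsox1, a disulphide-forming oxidase, at least 14.4-fold on its brightest probe, and Cyp3a9, at least 13.5-fold. For Qsox1 that bound was 3.85, but the median of its 2 probes was 1.97, so its size depends on the probe. With normexp the 5 highest bounds, Gal included, were smaller but past 2-fold, at 2.42 for Ifrd1 and 1.65 for Qsox1. The lowest bounds were Pde11a, at least 7.63-fold lower, Scn8a, at least 6.44-fold, Fam20a, at least 6.27-fold, Ptger4, at least 5.23-fold, and Gpm6a, at least 5.16-fold. All 5 lay within 2-fold with normexp, between -0.92 and -0.66. Genes named above with small differences, Fbl, Nob1, Tfam, Cct4, Cct5, Atic, Polr3d and H3f3b, from 1.03 to 1.18, were within 2-fold with spike-in scaling, from 0.84 to 0.99.

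At the higher doses, which are read against the same control array, the nucleolar genes had medians of 1.47 at 0.006% and 0.93 at 0.009%, and 42 and 23 of the 51 were at least 2-fold higher; 14.8% and 13.8% of named genes compared were. For Polr1b the difference was 2.74, 2.61 and 1.58 from the lowest to the highest dose, and for Gtpbp4 2.58, 2.70 and 1.94. For Gnl3 it was 2.22, 2.36 and 2.14. The ribosomal proteins had medians of 0.38, 0.50 and 0.71. The collagens had medians of -1.81, -1.25 and -0.60, the other matrix genes -0.76, -0.53 and -0.30, and the septin family -1.45, -0.59 and -0.50. Itga1 differed by -3.38, -2.44 and -1.31. Ampd1, Gal and Foxj1 were largest at 0.009%: Ampd1 differed by 5.73, 6.72 and 7.33. Over all named genes, the share at least 2-fold lower was 12.0%, 8.03% and 5.14% at the 3 doses. No order between doses was tested, with 1 array each and a shared control.

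**Figure D5:**
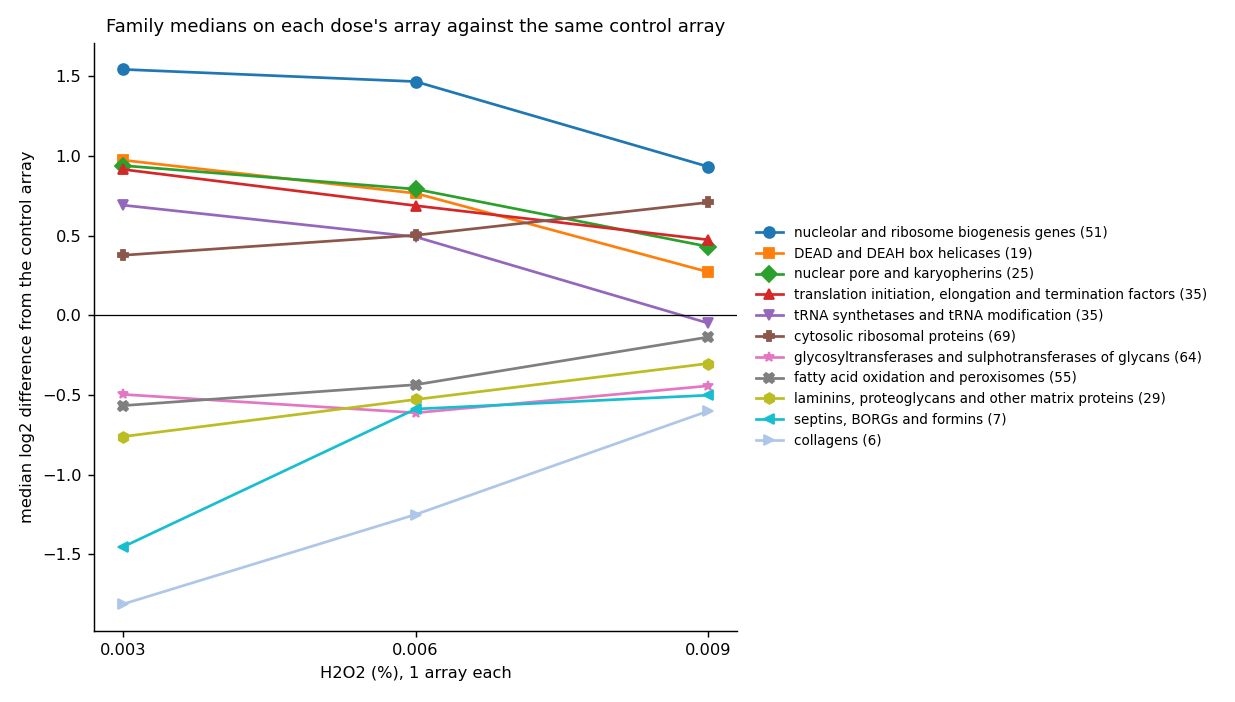
Median log2 difference from the control array (vertical axis) at each dose of H2O2 in percent (horizontal axis) for 11 gene families, with the number of genes compared at 0.003% in brackets; 1 array per dose and the same control array for all. The nucleolar genes stand highest at each dose, at 1.54, 1.47 and 0.93, and the collagens lowest, at -1.81, -1.25 and -0.60.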

How the data were processed

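Total RNA of 4 samples was labelled with Cy3 and hybridised to 1-colour Agilent arrays (design 014879), 1 per dose. Per the file headers, the authors read them with Feature Extraction 10.7.3.1 (protocol GE1_107_Sep09), and the deposited spot signal is a linear intensity after background subtraction, with no scaling between arrays. The authors' deposited value table is a ratio, equal in 100% of probes (tolerance 1e-06) to the probe's mean signal over the array median.

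Outlier spots were left out, spots of a probe averaged as log2, and the log2 of the 75th percentile subtracted. Probes were named through RefSeq accessions (GRCr8). A gene took its brightest probe. Where 1 side was not well above background, its own value or the array's lowest signal above background, whichever was higher, took its place. The spot error had a median of 0.20 on the log2 scale and covers the spot only. The number of arrays limits the precision.

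Families were formed from symbols, and genes matched by symbol but of other function were removed by name after the files were seen. Members and lists were chosen with earlier results of these data known. Named genes are the 15 highest and 15 lowest measured and the 5 highest and 5 lowest bounds outside the stress lists, the 6 largest of each family in each direction, and 4 fixed genes. This covers 687 genes, and the text names those whose role could be described, chosen with their values in view. Alternatives were other scalings, quantile normalization, normexp (limma 3.58.1, R 4.3.3, offset 50, on the median signal, as the mean signal was not used here), stricter filters, other folds and the median of a gene's probes. All genes matched by symbol, and families without stress-list genes, were added after seeing the data. The calculation was tested on simulated data. A few genes are not reported here.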

Additional observations from a re-analysis of the deposited data

How the results depend on the processing

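Counts of features at least 2-fold higher and lower, 3103 and 2840, were 1388 and 1303 with normexp, 5454 and 5154 at 1.5-fold, and 623 and 470 at 4-fold. They were within 1.5 times of these under the other settings, though the split turned with the scaling: 2483 and 3539 with array median scaling, and 2332 and 3777 with spike-in scaling. The 46 nucleolar genes higher were 16 at 4-fold and between 39 and 49 under the other 9 settings. Of 86 family medians, 20 moved by more than the median spot error of 0.20 with normexp, 10 when both arrays had to be above background, 2 with quantile normalization, 1 with the median of a gene's probes and 0 with outlier spots kept. Array median and spike-in scaling lower every difference by 1 constant (0.15 and 0.19) smaller than that error, so no median could count as moved, yet the families past 0.5 above and below, 12 and 8, became 6 and 19, and 4 and 23. Among families these settings altered, chosen after seeing the data, 2 of 45 medians moved with all genes matched by symbol and 1 of 27 without stress-list genes. None with a size of at least 0.5 changed sign. Of 687 genes covered by the rule for names, Prkce changed sign, to -1.29, with the median of its probes. Of 529 measured genes past 2-fold among them, 357 stayed past it with normexp, and of 114 bounds 11 did. Naming through a gene symbol column was not run, since none was used here. No paired analysis was possible because each dose has 1 array. Dim genes depend on the background correction, and no setting stands in for a second culture.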
